A study of Mus musculus with 24 samples.

Results

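The genes described are 35 genes of glycolysis and of the response to low oxygen, listed by symbol, and all 35 were found among the 25239 genes of the expression table. They comprise 2 glucose transporters, 15 glycolytic enzymes, 5 genes of lactate and pyruvate handling, 2 regulators of phosphofructokinase, 7 targets of hypoxia signaling, 2 oxygen sensors and 2 hypoxia-inducible factor subunits. Expression is given in TPM, the relative abundance of a transcript per length when all transcripts of a library sum to the same total. Of the 35, 34 reached 1 TPM in at least 3 libraries and were tested. Slc2a3, a glucose transporter, did not, with at most 0.293 TPM in any library. Epas1 reached that level through the Type D libraries alone, since 2 of the 12 Type V libraries were at 1 TPM or more.

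RNA-seq was performed on 6 mouse small cell lung cancer cell lines, each from 1 tumor of a mouse with Rosa26 FlpO-ER and the genotype Trp53 XTR/XTR with Rb1 flox/flox and Rbl2 flox/flox. Adenovirus with Cre under the CMV promoter had started the tumors, deleting Rb1 and Rbl2 and trapping Trp53 in an inactive form. The labels place 4711-1, then 4711-18, then 4716-11 in Type D and 4711-11, then 4716-10, then 4716-14 in Type V, types that the study named for dying or staying viable after p53 was restored. Each line was sequenced at 72 h in 4 states: Control (vehicle), Control + CsA (cyclosporin A, which binds cyclophilins), Restored (4-hydroxytamoxifen, which activates FlpO-ER and reopens the trapped Trp53 alleles) and Restored + CsA. This gave 8 groups of 3 lines with 1 library for each line and state, and all groups lacked Rb1 and Rbl2. The replicates of a group are thus lines from separate tumors. P-values without the line as a block measure the spread between lines. With the line as a block, each line's own level is set aside, and p-values measure how unevenly the lines changed between states. The spread within a line in a given state was not measured. The line names begin with 4711, 4711 and 4716 in Type D and with 4711, 4716 and 4716 in Type V. What these first numbers stand for is not given in the labels, and their part was not tested. The 4 libraries of a line were counted as independent in comparisons of the types, so those p-values are likely too small. Values are given in the order in which the lines are named above.

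Glycolysis splits glucose into pyruvate, and lactate dehydrogenase turns pyruvate into lactate, which monocarboxylate transporters carry across the membrane. When oxygen is low, the prolyl hydroxylases encoded by Egln1 and Egln3 cease to mark hypoxia-inducible factor for destruction, and the factor raises glycolytic enzymes, glucose transporters and genes such as Bnip3, Ankrd37, Pdk1 and Vegfa. Many cancer cells, small cell lung cancer among them, rely on glycolysis also when oxygen is present. The lines were grown in culture, and oxygen, lactate and glucose use are not measured in these data.

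Trp53 lay between 10.5 and 15.3 TPM in the 12 libraries without restoration and between 181 and 253 TPM in the 12 with it. Sequencing depth is unknown because TPM keeps no read counts. The neuroendocrine markers that define small cell lung cancer were low: Chga was at 0 in all 24 libraries, and the 8 markers together summed to 5.50 to 27.1 TPM in Type D and 16.2 to 85.7 TPM in Type V. The summed level of 6 fibroblast markers was 0.304 to 1.93 TPM in Type D and 187 to 563 TPM without and 75.3 to 193 TPM with restoration in Type V, and the part of this difference in the comparisons of the types cannot be told apart from the type itself. Endothelial markers summed to at most 0.922 TPM and the 2 erythroid markers were at 0 throughout. The immune markers, mostly Cd68, summed to 5.63 to 11.8 TPM without and 26.5 to 55.7 TPM with restoration in Type D, and to 7.97 to 11.5 TPM and 16.3 to 31.6 TPM in Type V. The part of these marker changes in the effects of restoration was not tested.

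Transcripts of the glycolytic route were among the most abundant of the list. Pkm, the pyruvate kinase gene, ranged from 1242 to 3455 TPM over the 24 libraries, Ldha from 390 to 3776 TPM, Aldoa from 646 to 2562 TPM and Tpi1 from 381 to 2708 TPM. At the other end, Car9, a carbonic anhydrase and hypoxia target, did not exceed 2.31 TPM, and the phosphofructokinase regulators Pfkfb3 and Pfkfb4 stayed between 1.68 and 13.1 TPM and between 2.29 and 11.5 TPM. Gapdh was between 33.6 and 161 TPM, well under the enzymes of the neighbouring steps. In GENCODE M21 it shares at least 95% identity over 200 or more bases with transcripts of 78 other genes, so its level is uncertain. Eno1 has such a copy, Eno1b, listed at 45.1 to 232 TPM, and Pfkp shares transcript sequence with Pitrm1 (76.8 to 189 TPM), so their values are also uncertain. Other genes share such sequence with genes for which no level is listed. These are Bnip3 (5 other genes), Ldha and Pgk1 (4 each), Pkm (2), and Gpi1, Ldhb, Ndrg1, Pgam1 and Tpi1 (1 each). Whether this affects their values is not known.

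**Figure D1:**
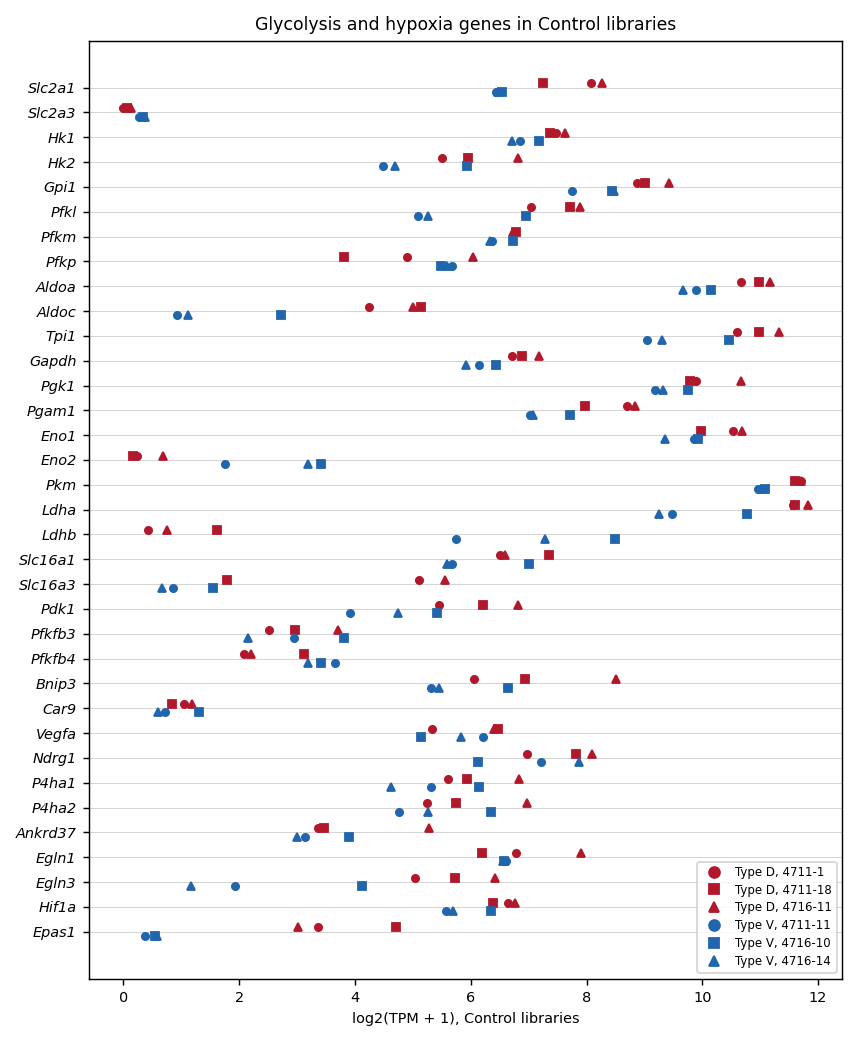
Levels of the 35 genes in Control libraries, as log2(TPM + 1) on the horizontal axis, with 1 point for each line (Type D red, Type V blue, symbol by line). The Type D points lie to the right of all Type V points for 19 of the 34 tested genes and to the left for 3, Ldhb by the widest margin.

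The first question was whether the types differed in this program before p53 was restored. In Control libraries most of the estimates were higher in Type D, and the lactate dehydrogenase subunits went in opposite directions. A gene was called at a Benjamini-Hochberg adjusted p under 0.05 with a difference of at least 1 log2 on the log2(TPM + 1) scale. Because libraries of a line were counted as independent, the p-values between types are likely too small. Of 34 genes, 6 were called higher in Type D, where 4.42% of all genes tested were, and 2 were called lower, against 4.41%. The median difference was 0.73 log2 over the 34 genes and -0.12 log2 over all genes tested, and 30 of 34 estimates were above 0. All 3 Type D lines lay above all 3 Type V lines for 19 genes (11.9% of all genes tested) and below them for 3 (19.5%). The calls depended on the lines: without Type V line 4716-10 they numbered 14, and without 4711-1, 4711-11, 4716-11 or 4716-14 they numbered 5, 5, 3 and 3. The calls of Aldoc and Ldhb held whichever line was left out, and those of Ldha, Slc2a1, Pgam1, Aldoa and Eno2 did not. One of the 6 genes called higher, Epas1, had entered the test only through its level in Type D and so had to differ, and its call is not counted as support.

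Glucose entry and its trapping as phosphate differed mainly at the transporter. Slc2a1, the main glucose transporter of proliferating cells, was at 269, 152 and 308 TPM in Type D and at 85.4, 92.5 and 87.7 TPM in Type V, so the types did not overlap. Its difference was 1.38 ± 0.41 log2 (SE, adjusted p = 0.032). The hexokinase gene Hk1 was at 177, 165 and 197 TPM against 114, 143 and 103 TPM, which passed the test at a smaller difference of 0.59 ± 0.18 log2 (adjusted p = 0.037). Hk2 overlapped between the types, with 44.5, 61.0 and 112 TPM in Type D and 21.5, 59.9 and 24.8 TPM in Type V.

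Among the 15 glycolytic enzymes, 3 were called higher in Type D, 1 was called lower, and 13 estimates were above 0. Aldolase carried the clearest difference. Aldoa was at 1631, 2010 and 2286 TPM in Type D and 943, 1130 and 814 TPM in Type V (1.04 ± 0.26 log2, adjusted p = 0.013). This gene belongs to a signature of Type D that the study drew from these same libraries, so its direction is not independent evidence. Aldoc, the aldolase typical of brain, was at 17.8, 34.3 and 31.0 TPM against 0.906, 5.59 and 1.16 TPM (3.20 ± 0.69 log2, adjusted p = 0.0040), yet made up 1.37% ± 0.30 (SD, n = 3) of the summed aldolase transcripts of Type D. Pgam1, a phosphoglycerate mutase, was at 414, 251 and 457 TPM against 129, 210 and 134 TPM (1.23 ± 0.39 log2, adjusted p = 0.043), a call that was lost without the filter on low values and with quantile normalization. Eno2, the neuronal enolase, went the other way, with 0.170, 0.119 and 0.611 TPM in Type D and 2.38, 9.68 and 8.08 TPM in Type V (-2.43 ± 0.62 log2, adjusted p = 0.013). Pkm was at 3328, 3101 and 3339 TPM against 1999, 2176 and 2067 TPM, and passed at 0.65 ± 0.18 log2 (adjusted p = 0.020). The groups did not overlap for Gpi1 (468, 511 and 686 TPM against 214, 347 and 356 TPM), Pgk1 (945, 882 and 1630 TPM against 580, 864 and 640 TPM) and Eno1 (1478, 1003 and 1641 TPM against 926, 972 and 653 TPM), 3 genes that were not called. Eno2 was a minor enolase in either type, at 0.0202% ± 0.0147 and 0.821% ± 0.503 (SD, n = 3) of Eno1 and Eno2 together.

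Phosphofructokinase, which commits glucose to the route, differed in its mix of subunits. The liver-type subunit Pfkl made up 56.7% ± 7.39 (SD, n = 3) of the 3 subunit transcripts in Type D and 29.3% ± 13.8 in Type V, while the platelet-type subunit Pfkp made up 10.2% ± 6.03 and 25.1% ± 7.81. No single subunit was called, and the muscle-type subunit Pfkm varied little, between 75.8 and 120 TPM over the 24 libraries. Pfkl was at 130, 210 and 234 TPM against 32.8, 123 and 37.6 TPM, and Type V line 4716-10 reached nearly the lowest Type D line. The same line was the highest Type V line for Tpi1, the triosephosphate isomerase gene, at 1401 TPM beside 526 and 632 TPM, with 1552, 2018 and 2565 TPM in Type D (adjusted p = 0.051).

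Among the genes of lactate and pyruvate handling, the lactate dehydrogenases differed in opposite directions. Ldha encodes the subunit favored in fermenting tissue and Ldhb the subunit favored in tissues that oxidize lactate. Ldha was at 3035, 3087 and 3632 TPM in Type D and at 713, 1744 and 606 TPM in Type V (1.83 ± 0.50 log2, adjusted p = 0.020). Ldhb was at 0.337, 2.07 and 0.688 TPM in Type D and at 52.9, 357 and 156 TPM in Type V (-6.24 ± 0.81 log2, adjusted p = 3.2e-05). Ldhb was thus 0.0323% ± 0.0302 (SD, n = 3) of the lactate dehydrogenase transcripts in Type D and 14.8% ± 7.03 in Type V. Slc16a3, a monocarboxylate transporter that exports lactate, was at 33.3, 2.46 and 45.9 TPM in Type D and at 0.804, 1.93 and 0.579 TPM in Type V. Slc16a1, which carries lactate in either direction, overlapped, at 90.2, 162 and 95.8 TPM against 49.9, 127 and 46.9 TPM. For Slc16a3 the Type D line 4711-18 lay close to Type V, and the difference of 3.13 ± 1.04 log2 was not called (adjusted p = 0.053). Pdk1, a kinase that shuts pyruvate out of the mitochondrial cycle, was at 42.6, 73.0 and 111 TPM against 14.1, 41.9 and 25.9 TPM and was not called (adjusted p = 0.081).

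**Figure D2:**
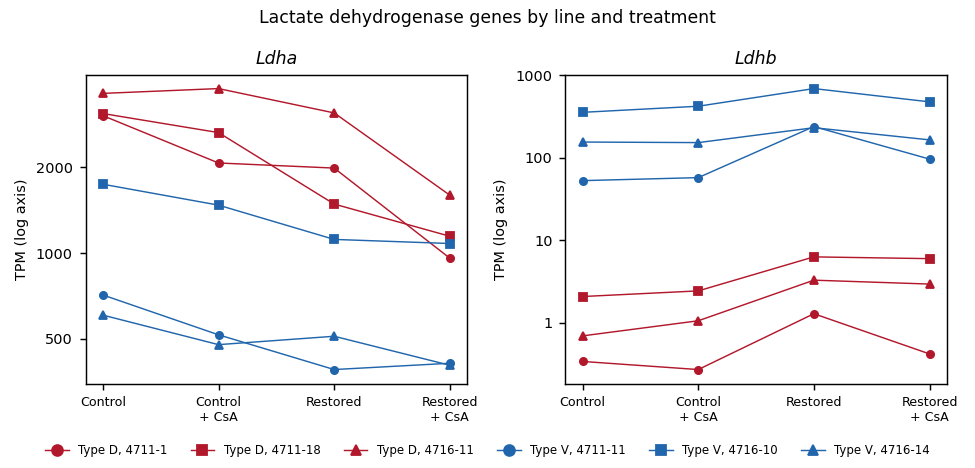
TPM (log axis) of Ldha and Ldhb in each line across the 4 states, Type D in red and Type V in blue. Ldhb stays at or under 6.27 TPM in every Type D library and at or above 52.9 TPM in every Type V library, and Type V line 4716-10 is the highest Type V line for both genes.

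The upstream sequences of this pair are shown because the genes moved in opposite directions between the types. Where a gene had several windows, the one with the most matches to the core of the hypoxia response element was printed. Each window is the 250 bases before the RefSeq transcription start on GRCm38.p6, written 5′ to 3′ on the strand of the gene. The element ACGTG or its reverse complement CACGT is in capitals.
Ldha (chr7:46845554-46845803, plus strand): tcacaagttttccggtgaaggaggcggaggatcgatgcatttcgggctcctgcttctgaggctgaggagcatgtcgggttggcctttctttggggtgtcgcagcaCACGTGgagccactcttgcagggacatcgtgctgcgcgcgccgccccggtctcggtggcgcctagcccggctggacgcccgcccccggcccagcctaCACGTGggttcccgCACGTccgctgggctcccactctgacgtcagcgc
Ldhb (chr6:142507958-142508207, minus strand): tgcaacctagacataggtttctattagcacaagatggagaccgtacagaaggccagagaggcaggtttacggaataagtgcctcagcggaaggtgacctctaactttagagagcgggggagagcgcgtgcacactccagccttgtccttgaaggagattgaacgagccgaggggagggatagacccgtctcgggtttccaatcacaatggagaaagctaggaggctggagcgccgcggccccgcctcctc
The Ldha window holds 5 matches, counting each strand, with CACGTG counted on both strands, whereas the Ldhb window holds 0. Ldha has a further annotated start whose window holds 0, as that of Ldhb does. The bases after that further start occur in a GENCODE transcript of Ldha, and those after the printed start do not. The contrast of the pair in this element thus rests on which Ldha window was printed. Of the 35 genes, 32 had a window in the RefSeq table, and 20 of these (62.5%) had at least 1 match in at least 1 window, compared with 24.5% of the 10851 tested genes that had a window and 18.5% of all 27025 genes of the table. A match is a description of letters and not a measured binding site, and genes with several starts had several windows.

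The hypoxia side of the list differed less firmly in Control libraries. All 7 hypoxia targets had estimates above 0 and 0 were called at the adjusted threshold, nor did any reach an unadjusted p under 0.05. Bnip3, which takes part in the removal of mitochondria, was at 65.3, 122 and 363 TPM in Type D and at 38.5, 99.3 and 42.5 TPM in Type V, and the groups overlapped. The other targets overlapped too: Vegfa was at 39.2, 87.8 and 83.4 TPM against 73.3, 34.2 and 56.1 TPM, and Ndrg1, a stress-responsive gene, at 124, 225 and 272 TPM against 148, 69.2 and 233 TPM. P4ha1 was at 47.7, 60.4 and 114 TPM against 38.9, 69.9 and 23.7 TPM, P4ha2 at 36.7, 52.9 and 124 TPM against 26.2, 80.3 and 37.1 TPM, and Ankrd37 at 9.22, 10.0 and 37.9 TPM against 7.78, 13.8 and 6.98 TPM. Of the sensors, Egln1 was at 109, 72.5 and 240 TPM against 96.4, 94.1 and 92.6 TPM. Egln3, a sensor that is itself raised by hypoxia, was at 31.8, 52.0 and 84.5 TPM against 2.80, 16.5 and 1.24 TPM, which did not overlap but was not called (3.32 ± 1.15 log2, adjusted p = 0.065). Of the factor subunits, Epas1 (HIF-2 alpha) was at 9.24, 25.3 and 7.05 TPM against 0.298, 0.466 and 0.495 TPM, given as levels because the gene was tested only on account of Type D. Hif1a, at 99.0, 82.9 and 107 TPM against 46.8, 80.2 and 50.5 TPM, did not overlap but was not called (0.73 ± 0.40 log2, adjusted p = 0.25). Epas1 made up 12.7% ± 9.30 (SD, n = 3) of the 2 factor transcripts in Type D and 0.727% ± 0.213 in Type V.

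A like comparison of the types was made after restoration. In Restored libraries 12 of 34 genes were called higher in Type D (4.45% of all genes tested) and 2 were called lower (4.99%). The comparison shares no library with the one in Control cells, but both use the same lines. The 12 largest called differences were those of Egln3 (4.33 ± 1.15 log2, adjusted p = 0.016), Epas1 (2.86 log2, a gene tested only on account of Type D), Hk2 (2.64 log2), Aldoc (2.58 log2), Slc2a1 (1.86 log2), Ldha (1.79 log2), Ndrg1 (1.58 log2), Pgam1 (1.47 log2), Tpi1 (1.45 log2) and Gapdh (1.40 log2) upward and of Ldhb (-6.36 log2) and Eno2 (-2.55 log2) downward. Aldoa and Hif1a were the other genes called. Only 7 calls were made in a fit to the Restored groups alone, and leaving out 4711-1, 4711-11, 4716-11 or 4716-14 gave 4, 6, 6 and 5. Leaving out 4716-10 gave 21. In these libraries 4 of 12 proliferation genes were called lower in Type D, and the part of that difference was not tested.

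The next comparison asked how restoring p53 changed these genes within a line. In Type D, 1 gene was called without regard to the pairing of libraries by line, against 6.93% of all genes tested. With the line as a block, 7 genes were called, against 11.2%. Vegfa, the vascular growth factor gene, was called in either fit, although without the block the call was lost when 4711-1, 4711-18 or 4716-11 was left out, and leaving out 4716-10 gave 3 calls. Vegfa rose from 39.2, 87.8 and 83.4 TPM to 174, 390 and 211 TPM (1.86 ± 0.50 log2, adjusted p = 0.018). With the block, the collagen prolyl hydroxylase gene P4ha2 (1.22 log2, adjusted p = 6.3e-05), Hk2 (1.19 log2, adjusted p = 0.0034), Ankrd37 (1.18 log2, adjusted p = 0.0024) and Ldhb (1.12 log2, adjusted p = 0.0019) rose, and the monocarboxylate transporter gene Slc16a1 (-1.24 log2, adjusted p = 0.00021) and Aldoc (-1.33 log2, adjusted p = 0.0071) fell. By adjusted p alone, 9 genes were higher and 7 lower, while 27.6% and 17.6% of all genes passed in these directions. The share of the list that passed was thus near that of all genes. By role, 4 of 7 hypoxia targets passed upward and 0 downward, and of 15 glycolytic enzymes 3 passed upward (Hk1, Hk2 and Eno2) and 5 downward (Eno1, Pkm, Tpi1, Pfkl and Aldoc). The difference between roles was not tested.

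In Type V, 0 genes were called without the block (limma, 5.29% of all genes tested; 4 genes had an unadjusted p under 0.05) and 2 with it (8.66%). Leaving out 4716-10 gave 1 call without the block, and leaving out 4711-11 gave 1 with it. With the block and a pseudocount of 0.1 in place of 1, 6 were called. Ldhb rose from 52.9, 357 and 156 TPM to 240, 693 and 232 TPM (1.23 ± 0.25 log2, adjusted p = 0.0010 with the block). Its share of lactate dehydrogenase transcripts went from 14.8% ± 7.03 to 35.9% ± 4.00 (SD, n = 3), and these ranges did not overlap. Slc16a1 fell from 49.9, 127 and 46.9 TPM to 11.3, 84.0 and 17.3 TPM (-1.34 ± 0.21 log2, adjusted p = 0.00013 with the block). By adjusted p alone 4 genes were higher and 10 lower, against 22.8% and 17.8% of all genes. Pfkfb3 (-0.96 ± 0.23 log2, adjusted p = 0.0030 with the block) had the next largest difference and also passed, but not at the size of a call. Ldha was among those that passed downward, at 390, 1116 and 511 TPM after restoration (-0.59 ± 0.15 log2, adjusted p = 0.0054 with the block).

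Averaged over the types, Vegfa (1.33 log2, adjusted p = 0.011) and Slc16a1 (-1.29 log2, adjusted p = 0.046) were called, against 6.84% of all genes, but 1 call remained when any of the 6 lines was left out. Ldhb (1.17 log2) and Aldoc (-1.02 log2) were added with the block, against 8.57%. Restoration lowered proliferation genes in both types, with 9 of 12 called in each, and their part in these changes was not tested. The response itself differed between types for few genes of the list. Without the block 0 genes were called and 0 had an unadjusted p under 0.05 (limma, 0.0284% of all genes called). With it Hk2 was called (2.44% of all genes): it went from 44.5, 61.0 and 112 TPM to 136, 161 and 171 TPM in Type D and from 21.5, 59.9 and 24.8 TPM to 9.92, 87.5 and 15.3 TPM in Type V. The response of Hk2 was 1.58 ± 0.41 log2 higher in Type D (adjusted p = 0.035 with the block). With median-ratio scaling or without 4711-1, 4711-18 or 4711-11, 0 genes were called, and without 4716-10, the Type V line in which Hk2 was higher after restoration, 4 were. The next largest differences, of Vegfa (1.08 ± 0.66 log2) and Ndrg1 (1.03 ± 0.75 log2), did not pass.

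The summed TPM of the 15 glycolytic enzymes and the 2 lactate dehydrogenases is given as a description of the whole route. In Control libraries the 17 genes summed to 13462, 13573 and 17127 TPM in Type D and to 6455, 9776 and 6419 TPM in Type V, or 1.47% ± 0.208 and 0.755% ± 0.193 (SD, n = 3) of all transcripts. In Restored libraries the sums were 10147, 9005 and 16025 TPM in Type D and 4855, 7794 and 5392 TPM in Type V. In Restored + CsA libraries Type D was at 6895, 7318 and 9433 TPM, and overlapped with Type V at 4720, 7741 and 4726 TPM. In each of the 6 lines the sum was lower in Restored than in Control libraries.

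**Figure D3:**
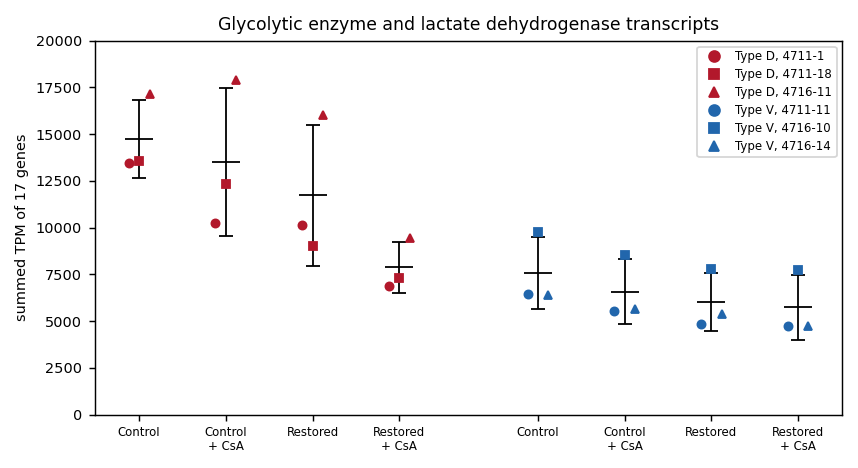
Summed TPM of the 15 glycolytic enzymes and 2 lactate dehydrogenases in each library by group, with the mean and SD (n = 3 lines) as bar and whiskers. Type D lines lie between 13462 and 17127 TPM in Control libraries and between 6895 and 9433 TPM in Restored + CsA libraries, where they overlap with Type V.

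In Control cells with CsA 0 of 34 genes were called in Type D (limma, 0% of all genes; with the block 0 genes, against 0.0142%) and 0 in Type V (0% in either fit), and without the block 0 genes of either type had an unadjusted p under 0.05 (1 and 4 with the block). The largest estimates were those of Vegfa (0.59 ± 0.50 log2), Ankrd37 (-0.50 ± 0.63 log2) and Slc16a3 (-0.47 ± 1.04 log2) in Type D and of Pfkfb3 (-0.40 ± 0.52 log2), Ankrd37 (-0.37 ± 0.63 log2) and Ldha (-0.35 ± 0.50 log2) in Type V. Of the 34 genes, 7 were lower in all 3 Type D lines, where 20.4% of all genes tested were, and 16 were lower in all 3 Type V lines, where 21.5% were. The 4 genes of Type V with an unadjusted p under 0.05 with the block were Eno1 (-0.27 log2), Pgam1 (-0.30 log2), Pkm (-0.31 log2) and Ldha (-0.35 log2), and none passed after adjustment.

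In Restored Type D cells nearly all estimates were lower in the libraries with CsA. Estimates were below 0 for 32 of 34 genes, with a median of -0.58 log2 beside 0.00 over all genes tested, and 29 genes were lower in each of the 3 lines, which held for 18.6% of all genes. Without the block 0 genes were called (limma, 0.0142% of all genes; 2 genes of the list had an unadjusted p under 0.05). With the line as a block 3 were called, of 18 called among all genes (0.128%). By adjusted p alone 11 of 34 passed downward and 0 upward, against 0.347% and 0.0638% of all genes.

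**Figure D4:**
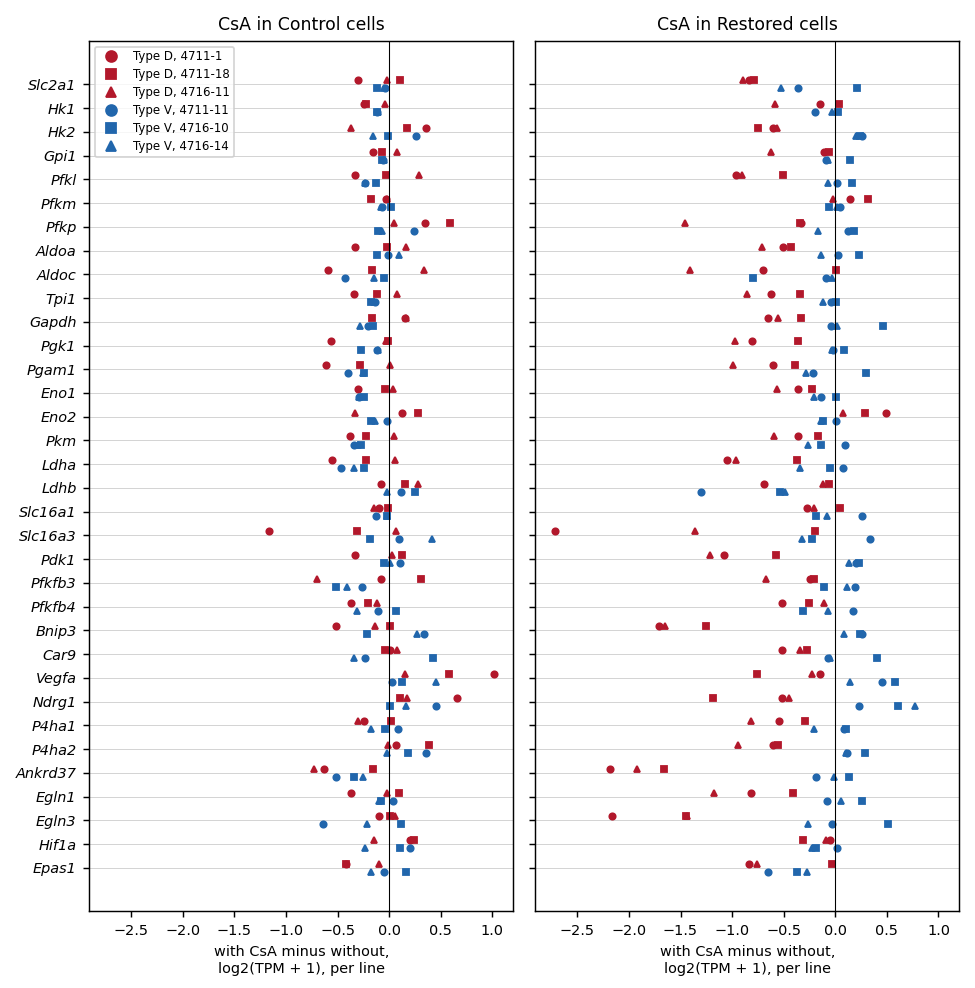
Difference between libraries with and without CsA of the same line on the log2(TPM + 1) scale, for the 34 tested genes (rows), in Control cells (left) and Restored cells (right), with 1 point for each line. In Restored cells the Type D points (red) lie below 0 in all 3 lines for 29 genes, and the Type V points (blue) do so for 3.

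The 3 called genes are targets of hypoxia-inducible factor. Ankrd37, an ankyrin repeat gene, was at 33.5, 26.2 and 52.8 TPM in Restored and at 6.59, 7.61 and 13.2 TPM in Restored + CsA libraries of Type D (-1.92 ± 0.27 log2, adjusted p = 0.0074 with the block). Egln3 went from 51.4, 54.4 and 88.7 TPM to 10.7, 19.3 and 32.0 TPM (-1.68 ± 0.28 log2, adjusted p = 0.015 with the block). Bnip3 went from 85.8, 123 and 524 TPM to 25.6, 50.7 and 166 TPM (-1.54 ± 0.16 log2, adjusted p = 0.0012 with the block). All 3 genes fell in every Type D line, and for Ankrd37 and Egln3 the groups did not overlap. The call of Egln3 was lost with a pseudocount of 0.1 (adjusted p = 0.152 with the block). Leaving out 4711-1 kept the call of Bnip3 alone, leaving out 4716-11 kept those of Bnip3 and Ankrd37, and leaving out 4711-18 kept these 2 and added Ldha, Pdk1 and Slc16a3. In these bulk libraries, fewer cells with a high level and less RNA in each cell cannot be told apart.

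The upstream sequences of these 3 genes are shown because the genes moved together, in the same form as above.
Ankrd37 (chr8:45999851-46000100, minus strand): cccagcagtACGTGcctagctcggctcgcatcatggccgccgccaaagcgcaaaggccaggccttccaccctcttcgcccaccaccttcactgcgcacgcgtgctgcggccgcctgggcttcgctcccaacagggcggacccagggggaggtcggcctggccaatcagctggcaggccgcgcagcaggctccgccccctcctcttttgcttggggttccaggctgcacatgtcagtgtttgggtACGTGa
Bnip3 (chr7:138909507-138909756, minus strand): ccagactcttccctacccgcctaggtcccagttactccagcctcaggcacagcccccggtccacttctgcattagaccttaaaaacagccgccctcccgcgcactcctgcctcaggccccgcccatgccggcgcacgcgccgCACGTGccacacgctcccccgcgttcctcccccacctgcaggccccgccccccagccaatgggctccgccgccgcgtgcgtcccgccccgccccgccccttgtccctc
Egln3 (chr12:54203875-54204124, minus strand): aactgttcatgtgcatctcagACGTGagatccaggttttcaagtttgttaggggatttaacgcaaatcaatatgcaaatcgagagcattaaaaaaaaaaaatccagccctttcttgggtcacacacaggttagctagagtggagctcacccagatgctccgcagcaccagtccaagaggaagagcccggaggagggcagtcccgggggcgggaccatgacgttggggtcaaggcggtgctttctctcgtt
The window of each gene held the element. Ankrd37 had 2 matches, which begin 241 and 6 bases before the start, Bnip3 had 1 CACGTG (2 matches) that begins 108 bases before the start, and Egln3 had 1 match at 229 bases. The bases after the printed start occur in a GENCODE transcript for Ankrd37 and Bnip3, and for Egln3 they do not. Among the genes that did not pass, Car9 had 1 match and Hif1a had 3. Of those that passed by adjusted p alone, Pdk1, Pfkl and Tpi1 had 0 in any window. Egln1, Pgam1 and P4ha1 had 1 each, Pgk1 had 2, and Ldha had 5 in the window printed above and 0 in its other window. No match says only that the letters are absent from the window.

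The other genes that passed by adjusted p alone came from several roles. They were Pdk1 (-0.96 log2, adjusted p = 0.0095 with the block), the oxygen sensor Egln1 (-0.80 log2), Ldha (-0.79 log2), Pfkl (-0.79 log2), the phosphoglycerate kinase gene Pgk1 (-0.71 log2), Pgam1 (-0.67 log2), Tpi1 (-0.61 log2) and the collagen prolyl hydroxylase gene P4ha1 (-0.55 log2). Ldha was at 1987, 1486 and 3102 TPM in Restored and at 959, 1145 and 1596 TPM in Restored + CsA libraries. Pdk1 was at 37.9, 50.9 and 119 TPM and at 17.4, 33.8 and 50.7 TPM. Slc2a1 was lower by a like amount in each line, at 411, 296 and 414 TPM and then 230, 171 and 222 TPM, but did not pass (-0.84 ± 0.28 log2, adjusted p = 0.21 with the block). The factor subunit Hif1a was at 126, 97.2 and 98.4 TPM and then 122, 78.2 and 92.5 TPM, a small difference that did not pass. Only Pfkm and Eno2 had estimates above 0.

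**Figure D5:**
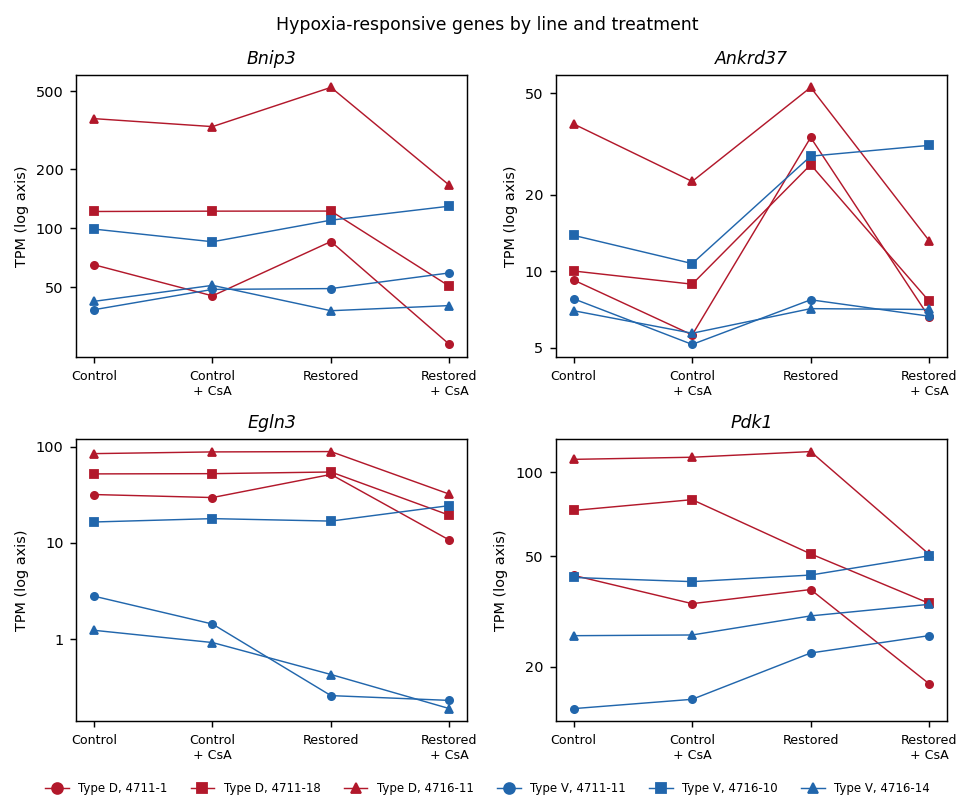
TPM (log axis) of Bnip3, Ankrd37, Egln3 and Pdk1 in each line across the 4 states, Type D in red and Type V in blue. Every Type D line falls from Restored to Restored + CsA, by 1.26 to 1.71 log2 for Bnip3, while the 3 Type V lines rise by 0.08 to 0.26 log2 for that gene.

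In Restored Type V cells the same comparison called 0 genes in either fit (limma, 0% of all genes; 0 genes with an unadjusted p under 0.05 without the block and 1 with it), the median was -0.00 log2, and 3 genes were lower in all 3 lines, against 20.5% of all genes. Bnip3 was at 49.4, 110 and 38.1 TPM and then 59.3, 130 and 40.4 TPM. The largest estimates were those of Ldhb (-0.78 ± 0.81 log2), Ndrg1 (0.54 ± 0.51 log2) and Epas1 (-0.43 ± 0.43 log2). The difference between the types in the effect of CsA on Restored cells was tested directly: without the block 0 genes were called (limma, 0%; 1 gene of the list, Ankrd37, had an unadjusted p under 0.05), and with it Bnip3 was called (-1.73 ± 0.23 log2, adjusted p = 0.023), the only gene called among all tested (0.00709%). With median-ratio scaling or without 4711-1, 4711-11, 4716-10 or 4716-11, 0 genes were called, and without 4711-18 there were 2. For Ankrd37 (-1.90 ± 0.38 log2, adjusted p = 0.22 with the block) and Egln3 (-1.75 ± 0.40 log2, adjusted p = 0.30) the difference did not pass.

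The effect of CsA was also compared between Restored and Control cells of the same type. In Type D the difference of effects was -1.67 ± 0.40 log2 for Egln3, -1.42 ± 0.38 log2 for Ankrd37 and -1.32 ± 0.23 log2 for Bnip3 with the block, and none was called, with an adjusted p of 0.27 for Bnip3 (limma, 0% of all genes in either fit; 0 genes of the list with an unadjusted p under 0.05 without the block and 15 with it). In Type V 0 genes were called as well (limma, 0% in either fit; 0 genes with an unadjusted p under 0.05 without the block and 1 with it). The largest differences there were those of Ldhb (-0.89 ± 0.35 log2), Pfkfb3 (0.46 ± 0.32 log2) and Epas1 (-0.41 ± 0.38 log2). The share of all genes with an unadjusted p under 0.05 is not given here. The 15 genes in Type D are thus not read as particular to the list.

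In the presence of CsA, 18 of the 34 genes were lower after restoration in Type D by adjusted p alone with the block. Restored + CsA libraries were compared with Control + CsA libraries, and this comparison shares no library with that of Restored and Control cells. It does share the Restored + CsA libraries with the effect of CsA on Restored cells. Low values in those libraries thus enter both results. Without the block 0 genes were called (limma, 5.41% of all genes; 6 genes with an unadjusted p under 0.05), and with it 8 were called, all lower, against 9.69% of all genes in either direction. They were Aldoc (-1.89 log2), Egln3 (-1.40 log2), Slc16a1 (-1.30 log2), Ldha (-1.19 log2), Pfkl (-1.17 log2), Pdk1 (-1.09 log2), Pfkp (-1.09 log2) and Bnip3 (-1.02 log2), with adjusted p of at most 0.00095. Without the block, leaving out 4716-10 gave 3 calls. By adjusted p alone 18 genes were lower and 3 higher, against 14% and 27.2% of all genes. Ldha went from 2070, 2646 and 3776 TPM to 959, 1145 and 1596 TPM, and its Type D values then overlapped with those of Type V line 4716-10 (1080 TPM). In Type V, 0 genes were called without the block (limma, 4.61%; 2 genes with an unadjusted p under 0.05) and Slc16a1 was called with it (-1.28 ± 0.21 log2, adjusted p = 0.00022; 7.97% of all genes). Without the block, leaving out 4716-10 gave 1 call, and with it a pseudocount of 0.1 or leaving out 4711-11 gave 2. Vegfa (0.98 ± 0.47 log2) and Aldoc (-0.81 ± 0.36 log2) followed in size with the block and did not pass. By adjusted p alone 4 genes were higher and 5 lower there, against 20.6% and 16.5%. In Restored + CsA libraries all 3 Type D lines lay above all 3 Type V lines for 5 of the 34 genes (14.6% of all genes) and below them for 3 (15.5%), with 26 overlapping.

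Other genes of the same pathways were read from fixed lists of 40 glycolysis and 41 hypoxia genes, of which 31 and 38 were tested. In Control libraries 4 of the 31 glycolysis genes were called higher in Type D and 1 lower, against 4.42% and 4.41% of all genes tested. The muscle fructose bisphosphatase gene Fbp2 (4.42 log2, adjusted p = 0.0064) and the liver pyruvate kinase gene Pklr (4.15 log2, adjusted p = 0.0028) led upward, and the pyruvate dehydrogenase kinase gene Pdk4 (-2.81 log2, adjusted p = 0.00015) was lower. Fewer than 3 Type V libraries reached 1 TPM for Pklr, so it entered the test only through Type D. The call of Pklr, among the 4, is not counted as support. Among the hypoxia genes Ak4, a mitochondrial adenylate kinase, was called higher (3.18 log2, adjusted p = 0.0017) and Lox, which crosslinks collagen, lower (-7.19 log2, adjusted p = 3.0e-06). Ak4 was at most 1.27 TPM in Type V libraries, and Lox at most 0.237 TPM in Type D libraries. Each gene entered the test only through the other type and so had to differ. The calls of Ak4 and Lox are not counted as support. Their medians were -0.02 and 0.17 log2, beside -0.12 log2 over all genes tested. In Restored libraries 4 glycolysis and 8 hypoxia genes were called higher in Type D and 1 of each lower, against 4.45% and 4.99% of all genes. Ak4 (3.58 log2), Fbp2 (3.11 log2) and the cyclin gene Ccng2 (1.87 log2) led upward. Lox (-6.10 log2) and Pdk4 (-2.47 log2) led downward. As in Control libraries, Ak4 and Lox had to differ because of the filter, and their calls are not counted as support.

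Restoration moved several of these genes in both types with the block. The urate and glucose transporter gene Slc2a9 (2.90 log2 in Type D, 4.04 log2 in Type V), the collagen lysyl hydroxylase gene Plod2 (2.48 and 1.34 log2) and Ddit4 (1.81 and 1.91 log2), which restrains mTOR and is a target of p53 as well as of hypoxia, rose, as did the carbonic anhydrase gene Car12 (1.44 and 1.40 log2). The glycerol phosphate dehydrogenase gene Gpd1 (-2.28 and -1.42 log2) and the stanniocalcin gene Stc2 (-1.75 and -1.48 log2) fell. Pklr was called lower in Type D (-2.83 log2) and Loxl2, a lysyl oxidase, in Type V (-1.23 log2). In Type D, 18 of 38 hypoxia genes passed upward and 3 downward by adjusted p alone, against 27.6% and 17.6% of all genes. In Type V 9 and 5 did, against 22.8% and 17.8%, so the upward share there was near that of all genes. For the effect of CsA on Restored Type D cells, 5 of 38 hypoxia genes passed downward with the block, against 0.347% of all genes. Ak4 was called (-1.19 log2, adjusted p = 0.0074), as 0.128% of all genes were, while 1 of 31 glycolysis genes passed. In Restored Type V cells 0 of either list passed. Of the proliferation genes, 0 of 12 passed in Restored Type D cells with CsA and the median was 0.07 log2. In Restored Type V cells with CsA all 12 had estimates below 0, with a median of -0.76 log2, and 0 passed.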

How the data were processed

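RNA-seq libraries (stranded mRNA, single-end reads) of 6 mouse cell lines in 4 states were analysed, 24 in all. The authors deposited gene-level TPM values, and per the labels reads were aligned with HISAT2, whose version is not given in the sources used here, while the study's methods also name kallisto. Which of these, and which mouse build, underlies the TPM values is not given there, and depth is unknown, so intervals for counting error could not be given. TPM is relative to all transcripts of a library, so a rise of abundant genes lowers the rest.

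Values were tested as log2(TPM + 1) for the 14104 genes with at least 1 TPM in at least 3 libraries, with limma 3.58.1 (R 4.3.3, mean-variance trend) and 1 coefficient for each of the 8 groups. Fold changes on this scale understate those of low genes. P-values were adjusted by the Benjamini-Hochberg method over all genes tested. A call needed an adjusted p under 0.05 and a difference of at least 1 log2, and "passed" means the adjusted p alone. A second fit had the cell line as a block. The comparisons of the types could not take this block, since every line belongs to a single type. Their fit counted the libraries of a line as independent. Libraries of the same line deviated together from their group means (r of 0.599 to 0.929 in 36 pairs, and -0.675 to 0.0438 in 72 pairs of other lines), and the pairing comes from the line names in the labels. Blocked values are given where they change a call. SEs given with the words "with the block" come from that fit, as do all values in the comparisons of effects. The code was tested on simulated data.

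The genes and the other lists were chosen with earlier results of these data known. Genes called were named with their difference, at most the 12 largest, and where fewer than 3 were called, the 3 largest. Of the other pathway genes the 3 largest called in each direction were named. Upstream windows came from RefSeq (GRCm38.p6), and near-identical copies were searched in GENCODE M21 transcripts. The differences between CsA effects, and the blocked fits under other settings, were added after the data had been seen. Alternatives were another pseudocount, other filters, other scalings, each line left out, and fits without the groups outside a comparison.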

Additional observations from a re-analysis of the deposited data

Results flagged for a closer look

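Every Type D line moved one way and every Type V line the other for several genes. With CsA in Restored cells, this held for Bnip3 (Type D minus Type V -1.73 log2, with -1.54 in Type D and 0.19 in Type V), Ndrg1 (-1.25 log2, with -0.72 and 0.54), Pdk1 (-1.14 log2, with -0.96 and 0.19), Hk2 (-0.87 log2, with -0.64 and 0.23), P4ha2 (-0.87 log2, with -0.70 and 0.17) and Vegfa (-0.77 log2, with -0.38 and 0.39). Of these differences, that of Bnip3 passed the test with the cell line as a block, and the others did not. Between Restored + CsA and Control + CsA libraries it held for Pdk1 (-1.55 log2, with -1.09 and 0.46), Egln1 (-0.73 log2, with -0.41 and 0.32) and Gpi1 (-0.54 log2, with -0.28 and 0.25), and the difference between the types was not tested there. Between Restored and Control libraries it held for Pfkfb4 (0.90 log2, with 0.58 and -0.32) and Aldoa (0.17 log2, with 0.05 and -0.12). The response of Pfkfb4 differed between the types by adjusted p with the block (adjusted p = 0.027, limma), below the size of a call, and that of Aldoa did not. The genes named here were picked by their opposite directions, and the share of all genes tested with that pattern was not counted. Whether the list shows the pattern more often than other genes is thus not known.

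By a test of the difference itself with the block, the response to restoration differed for Hk2 (1.58 log2 higher in Type D), and the effect of CsA on Restored cells differed for Bnip3 (-1.73 log2). Neither was called without the block.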

How the results depend on the processing

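With the replicate block (cell line), calls went from 1 to 7 for Restored minus Control in Type D, from 0 to 2 in Type V and from 2 to 4 for their mean, from 0 to 8 for Restored + CsA minus Control + CsA in Type D and from 0 to 1 in Type V, from 0 to 3 for CsA in Restored Type D cells, and from 0 to 1 for both the restoration response and the CsA effect compared between types. The block changed no other count of calls. In fits to the compared groups only there were 7 calls for the types in Restored libraries, 2 for restoration in Type D, 1 for the mean and 2 for restoration under CsA in Type D. With no minimum difference the mean had 5 calls and restoration under CsA 1 in each type, and with no filter the mean had 1. With the block and a pseudocount of 0.1 there were 6 calls for restoration in Type V, 2 for restoration under CsA in Type V and 2 for the restoration response compared between types. With the block and median-ratio scaling (factors 0.887 to 1.12), there were 0 for that response and 0 for the CsA effect compared between types.

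Leaving out 1 line gave 3 to 14 calls for the types in Control and 4 to 21 in Restored libraries, 0 to 3 for restoration in Type D, 0 to 1 in Type V and 1 for their mean, and 0 to 3 and 0 to 1 for restoration under CsA in Type D and Type V. With the block the ranges were 1 to 3 for restoration in Type V, 1 to 2 under CsA in Type V, 1 to 5 for CsA in Restored Type D cells, 0 to 4 for the restoration response and 0 to 2 for the CsA effect compared between types. The causes were not tested. Among the repeats for single genes, 779 kept their side of the threshold, 34 gained and 85 lost a call, and 0 changed direction.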
